A study of Homo sapiens with 2 samples.

Results

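Rb binding on chromosome 17 was examined in the peak lists of the prostate cancer cell lines LNCaP and VCaP. The members are all listed peaks on chromosome 17 (build hg19), 1222 in LNCaP and 594 in VCaP, of 21994 and 9423 peaks in the whole lists. A peak was placed on the short (p) arm where its summit lay below 22.2 Mb and on the long (q) arm where it lay above 25.3 Mb. This gave 343 LNCaP and 117 VCaP peaks on the p arm, 876 LNCaP and 470 VCaP peaks on the q arm, and 3 LNCaP and 7 VCaP peaks between these limits.

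LNCaP is an established line from a lymph node metastasis and VCaP one from a vertebral metastasis, and both express the androgen receptor. All cells, at passage 10 to 15, spent 3 days in 5% charcoal-stripped serum, followed by 4 h with 10 nM DHT (dihydrotestosterone, an androgen). Both groups had the hormone, so that its effect is not part of any comparison here. Rb was precipitated with a mouse monoclonal antibody, and each line has 1 library. Untreated cells, input and replicates were not analysed here. The LNCaP library had 3671482 tags after filtering and the VCaP library 8691938, a ratio of 0.422. Differences below therefore compare 2 libraries, without a test between the lines, and the intervals given cover counting error only.

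Rb, the retinoblastoma protein, is a pocket protein that binds E2F transcription factors at promoters and holds their target genes back until cyclin-dependent kinases phosphorylate it. Chromosome 17 is among the gene-dense human chromosomes. Its short arm carries POLR2A, which encodes the catalytic subunit of RNA polymerase II, and NCOR1, a corepressor of nuclear receptors. Its long arm carries ERBB2, a receptor tyrosine kinase, SPOP, a substrate adaptor of a ubiquitin ligase, and the HOXB cluster of developmental transcription factors. No gene annotation or genome of build hg19 was used here, so that peaks are given by position, and no peak is assigned to a gene.

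Chromosome 17 held one of the larger sets of Rb peaks in both lists, and the excess of LNCaP over VCaP peaks was somewhat smaller there than elsewhere. By number of peaks it ranked 4 of 23 chromosomes in LNCaP and 5 in VCaP, and it ranked 5 by protein-coding genes, with 1169 in the RefSeq table for GRCh38.p14. There were 105 LNCaP and 50.8 VCaP peaks per 100 protein-coding genes, ranks of 17 and 10 among the chromosomes. LNCaP had 2.06 times as many peaks as VCaP on chromosome 17 (95% interval 1.86 to 2.27) and 2.36 times as many on the other chromosomes (2.30 to 2.42). The ratio of chromosome 17 ranked 17 of 23, and single chromosomes ran from 1.49 to 4.50. Only the 23 chromosomes 1 to 22 and X enter these comparisons.

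In LNCaP, peaks of chromosome 17 were high but stood over a high local background. The median summit pileup, the number of extended tags over the summit, was 15 tags on chromosome 17 and 13 on the other chromosomes, or 4.09 and 3.54 when divided by the library's tags and multiplied by 1000000. Values so divided are called scaled tags below. The LNCaP median was also 4.09 scaled tags on chromosome 16 and was higher on chromosome 19, at 4.36, so that a high pileup was not particular to chromosome 17. The tags in the 10 kb window around each peak, computed back from the deposited fold enrichment, had a median of 19.3 scaled tags on chromosome 17 and 13.6 elsewhere. The median fold enrichment, the authors' ratio of pileup to local background, was 5.59 on chromosome 17 against 6.04 on the other chromosomes, and it was the lowest of the 23 chromosomes. A fold enrichment of at least 10 was reached by 81 of 1222 LNCaP peaks, or 6.63%, against 8.02% of the whole LNCaP list.

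In VCaP the same measures lay closer to those of the other chromosomes. The median summit pileup was 14 tags against 13 elsewhere, or 1.61 and 1.496 scaled tags. Windows held a median of 8.28 scaled tags around the peaks of chromosome 17 and 7.71 elsewhere. The median fold enrichment was 5.58 on chromosome 17 and 5.50 on the others. Folds of at least 10 were found at 18 of 594 VCaP peaks, or 3.03%, against 3.32% of the whole VCaP list. Peaks had a median length of 391 bp in LNCaP and 324.5 bp in VCaP on this chromosome. At least 1000 bp long were 26 LNCaP peaks, which is 2.13% against 2.34% of all LNCaP peaks, and 1 VCaP peak, or 0.168% against 0.224% of all VCaP peaks.

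The arms of chromosome 17 differed in how many more peaks LNCaP had than VCaP. On the p arm it had 2.93 times as many (2.37 to 3.65), and on the q arm 1.86 times as many (1.66 to 2.09). Among peaks of at least 20 tags, or 5.45 scaled tags in LNCaP and 2.30 in VCaP, these ratios were 7.85 and 2.39. Few VCaP peaks of the p arm reach that limit, as their upper quartile was 16 tags, and no interval was computed. With as many LNCaP as VCaP peaks taken over the genome, those of highest fold enrichment, the ratios were 1.01 and 0.655. This cut removes the LNCaP excess over the genome by construction, so that the loss of the excess on the arms is not a result. LNCaP peaks of chromosome 17 had the lowest median fold enrichment of the chromosomes compared. The part of this ranking in both ratios was not tested. The p arm ratio was 1.57 times the q arm ratio with the whole lists and 1.54 times with lists of equal length. LNCaP peaks were equally dense on both arms, with 15.5 per Mb on the p arm and 15.7 on the q arm, whereas VCaP had 5.27 per Mb on the p arm and 8.41 on the q arm. The p arm thus held 28.1% of the LNCaP peaks of the chromosome (25.6 to 30.7) and 19.7% of the VCaP peaks (16.6 to 23.1). Neighbouring LNCaP summits were a median of 36.0 kb apart on the p arm and 32.7 kb on the q arm, and neighbouring VCaP summits 85.4 kb on the p arm and 58.6 kb on the q arm. In density and spacing, the arms thus differed more in the VCaP list than in the LNCaP list.

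Summit pileup also differed between the arms in VCaP, with medians of 12 tags on the p arm and 14 on the q arm. Its median was 4.09 scaled tags on both arms in LNCaP. In VCaP it was 1.38 on the p arm, with quartiles of 1.15 and 1.84, and 1.61 on the q arm, with quartiles of 1.27 and 2.19. The difference did not follow the arms evenly. By bin, the VCaP median was 1.61 from 0 to 5 Mb on the p arm. On the q arm it was 2.07 from 25 to 30 Mb but 1.38 from 70 to 75 Mb. The highest VCaP pileup was 3.68 scaled tags on the p arm and 7.48 on the q arm. In LNCaP the maximum was 27.5 on the p arm, at a single peak near the limit of the arm, and 21.0 on the q arm, and without that peak the p arm maximum was 16.9. Fold enrichment did not show this arm difference. Its LNCaP medians were 5.53 on the p arm and 5.63 on the q arm. Its VCaP medians were 5.83 and 5.51, an order opposite to that of the VCaP pileup. Tags in the 10 kb windows were also fewer on the p arm in VCaP. The medians were 19.9 scaled tags on the p arm and 19.1 on the q arm in LNCaP, and 6.79 and 8.63 in VCaP. The windows include the tags of the peak itself, and their part in the pileup was not tested.

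**Figure D1:**
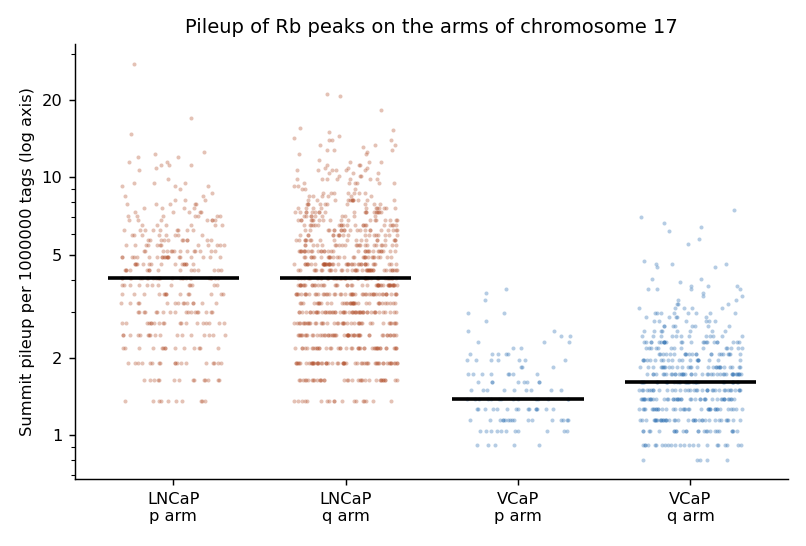
Summit pileup in scaled tags (vertical log axis) for every Rb peak on the p and q arms of chromosome 17 in LNCaP and VCaP. Each point is a peak and the black bar is the median. The LNCaP medians are equal on the arms at 4.09, and the VCaP median is 1.38 on the p arm and 1.61 on the q arm.

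Along the chromosome, LNCaP peaks outnumbered VCaP peaks in each of the 17 bins of 5 Mb, by between 1.22 and 4.33 times. The lowest ratios lay at the start of the q arm. The bin from 25 to 30 Mb held 87 LNCaP and 62 VCaP peaks, 1.40 times as many in LNCaP (1.002 to 1.98). The bin from 30 to 35 Mb held 55 and 45, which is 1.22 times (0.809 to 1.85). The bins from 35 to 40, 40 to 45 and 45 to 50 Mb followed with ratios of 1.67, 1.80 and 1.69. These 3 bins held the largest VCaP numbers outside the bin from 25 to 30 Mb, with 60, 65 and 61 peaks, and LNCaP numbers of 100, 117 and 103.

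Higher ratios were found on the p arm from 5 Mb on, and again from 60 to 70 Mb on the q arm. The bins from 0 to 5 and 5 to 10 Mb had 101 LNCaP peaks each, but 51 and 26 VCaP peaks, which gave ratios of 1.98 (1.40 to 2.83) and 3.88 (2.504 to 6.23). The bin from 10 to 15 Mb had 26 and 6 peaks, the ratio of 4.33, with a wide interval of 1.74 to 12.9. From 15 to 20 Mb the numbers were 82 and 31, and from 20 to 25 Mb they were 35 and 9. On the q arm, 60 LNCaP and 19 VCaP peaks from 60 to 65 Mb gave 3.16 (1.86 to 5.60), and 40 and 10 peaks from 65 to 70 Mb gave 4.00 (1.97 to 8.97). Toward the end of the arm, the bin from 70 to 75 Mb had a ratio of 2.26 and the next one 1.93, and 28 LNCaP and 14 VCaP peaks lay from 80 Mb on.

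**Figure D2:**
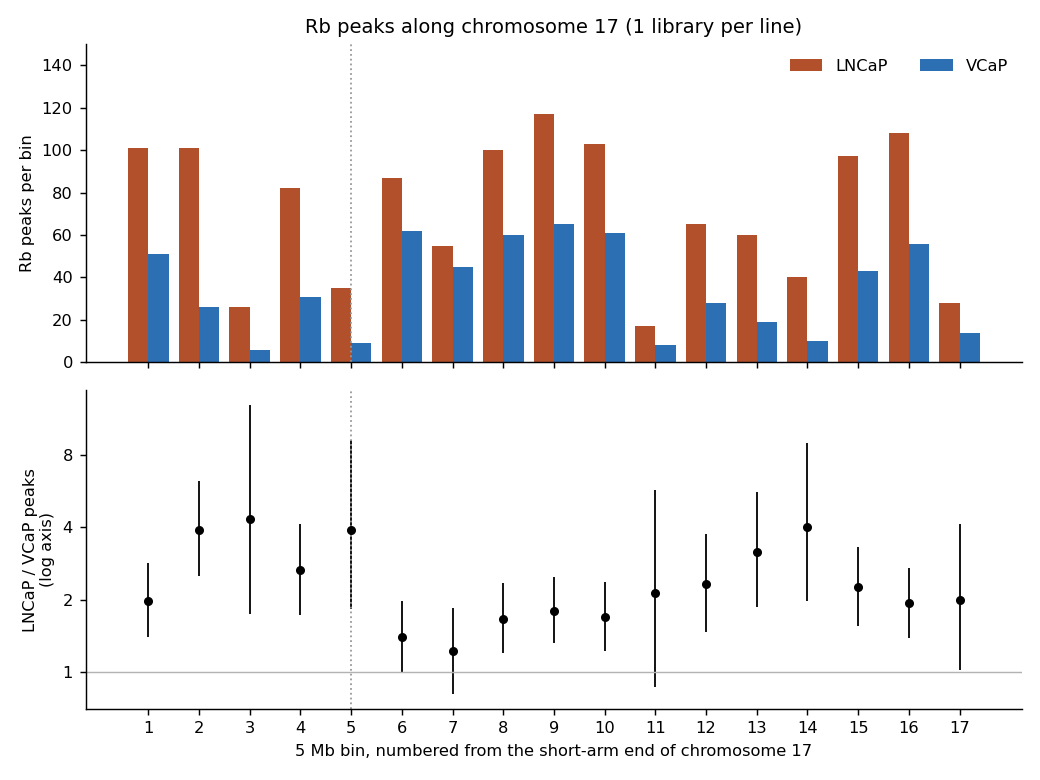
Number of Rb peaks in each 5 Mb bin of chromosome 17 in LNCaP and VCaP (upper panel), and the LNCaP over VCaP ratio of these numbers on a log axis with exact 95% intervals (lower panel). Bins are numbered from the short-arm end, and the dotted line marks the bin that holds the limit between the arms. The ratio is lowest in bins 6 and 7, at 1.40 and 1.22, and higher in bins 2 and 14, at 3.88 and 4.00.

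Set against the same bins elsewhere, the range on chromosome 17 was within that of the genome. In the 329 bins of the other chromosomes with at least 10 VCaP peaks the median ratio was 2.23 (quartiles 1.72 and 2.82). Of these bins, 20 had a lower ratio than the bin from 30 to 35 Mb, or 6.08%, and 38 a lower one than the bin from 25 to 30 Mb. At the other end, 306 of the 329 had a lower ratio than the bin from 65 to 70 Mb and 302 than the bin from 5 to 10 Mb. The 14 such bins of chromosome 17 had a median ratio of 1.99.

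Long stretches without any Rb peak were few. From 49781388 to 52857728 neither list had a peak over 3.08 Mb, and the bin from 50 to 55 Mb accordingly held only 17 LNCaP and 8 VCaP peaks. The next longest stretch measured 0.977 Mb, from 68995606 to 69972222. The 3.00 Mb from 22261685 to 25264925, between the arms, are not counted here, since they coincide with the unsequenced centromere gap of the assembly, where no tag can map.

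The share of overlapped peaks on chromosome 17 was above that of the whole list in LNCaP and near it in VCaP. A VCaP peak overlapped 438 of 1222 LNCaP peaks by at least 1 bp, which is 35.8% (33.2 to 38.6), against 30.2% over the whole LNCaP list. From the VCaP side, 439 of 594 peaks had an LNCaP partner, or 73.9% (70.2 to 77.4), against 71.2% over the whole VCaP list. This interval includes the value of the whole VCaP list. The LNCaP share follows from the VCaP share and the smaller ratio of peak numbers on this chromosome, and is not a separate result. The LNCaP share ranked 5 of 23 chromosomes and the VCaP share 9. The 439 pairs had a median distance between summits of 77 bp, with quartiles of 32.5 and 146.5 bp. In 83.8% of pairs this distance was at most 200 bp, close to the 82.6% of all pairs in the genome. The pairs involved 432 LNCaP peaks, of which 7 were the partner of several VCaP peaks. With an overlap of at least 50% of both peaks the shares were 23.9% of LNCaP and 49.2% of VCaP peaks.

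On the arms the overlap took opposite orders in the lists. The shared peaks were 96 in both lists on the p arm, and 340 in LNCaP and 341 in VCaP on the q arm. The LNCaP share thus follows from the VCaP share and the ratio of peak numbers given above, and is not a separate result. Of the LNCaP peaks, 28.0% had a VCaP partner on the p arm (23.3 to 33.1) and 38.8% on the q arm (35.6 to 42.1). Of the VCaP peaks, 82.1% had an LNCaP partner on the p arm (73.9 to 88.5) and 72.6% on the q arm (68.3 to 76.5), with intervals that overlap. The p arm had 247 LNCaP peaks without a partner, whose nearest VCaP summit was a median of 52.6 kb away. On the q arm 536 LNCaP peaks had no partner, at a median distance of 33.9 kb. The VCaP peaks without a partner were 21 on the p arm and 129 on the q arm, a median of 11.8 and 14.2 kb from an LNCaP summit.

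By bin, the share of LNCaP peaks with a VCaP partner was highest from 30 to 35 Mb, at 31 of 55 or 56.4% (42.3 to 69.7), and next highest from 25 to 30 Mb, at 47.1% (36.3 to 58.1). It was 21.8% from 5 to 10 Mb (14.2 to 31.1), 8 of 40 peaks from 65 to 70 Mb (9.05 to 35.6%) and 11.4% from 20 to 25 Mb (3.20 to 26.7). The VCaP share ran from 63.3% in the bin from 35 to 40 Mb to 90.3% in the bin from 15 to 20 Mb among bins with at least 20 VCaP peaks. Because the numbers of shared peaks were nearly equal in both lists, the LNCaP share tends to be low where the ratio of peak numbers is high.

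**Figure D3:**
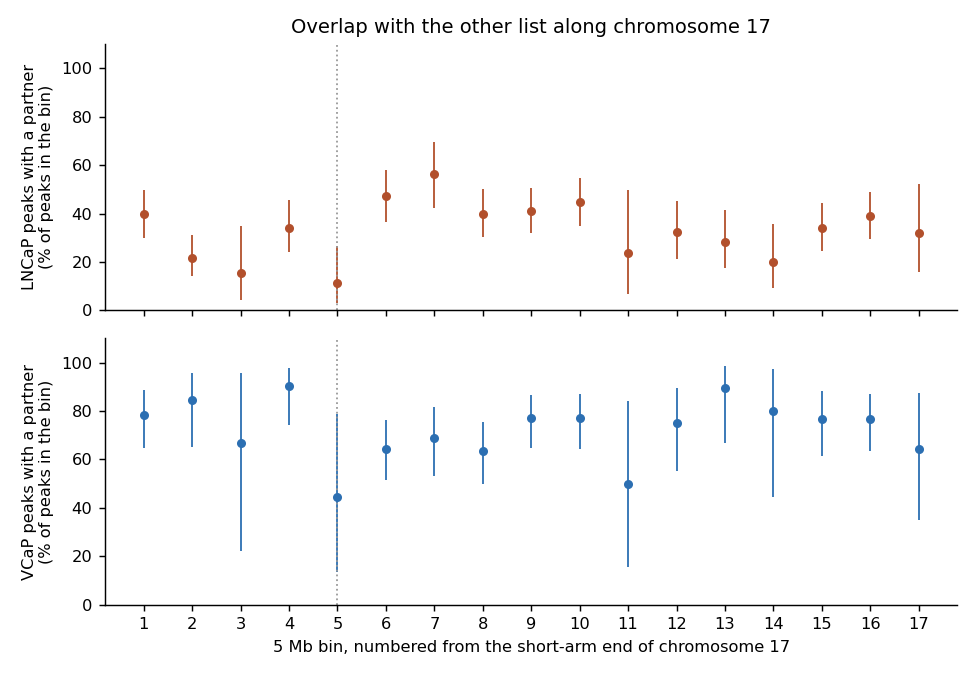
Percentage of LNCaP peaks (upper panel) and VCaP peaks (lower panel) in each 5 Mb bin of chromosome 17 that overlap a peak of the other list, with exact 95% intervals. Bins are numbered from the short-arm end, and the dotted line marks the bin with the limit between the arms. The LNCaP share is highest in bin 7 at 56.4%. The numbers of shared peaks are nearly equal in both lists, so that the VCaP share is the larger wherever VCaP has fewer peaks, which is every bin.

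Peaks with a partner were the higher and longer ones. In LNCaP they had a median pileup of 5.72 scaled tags, a fold enrichment of 7.20 and a length of 535.5 bp, against 3.27, 5.22 and 323.5 bp for peaks without one. In VCaP the medians were 1.73 scaled tags, 5.81 and 350 bp with a partner, against 1.27, 5.16 and 262 bp without. With each list cut by fold enrichment into 4 parts of equal size, 14.7% of LNCaP peaks had a partner in the lowest part and 69.3% in the highest. The VCaP shares were 60.4% and 87.9%. All 10 peaks of highest fold enrichment in each list had a partner, but only 2 of these were among the 10 highest of both. The same values over the whole lists are not given here, so that nothing in them is set apart as particular to chromosome 17. A longer peak also meets an overlap of at least 1 bp more readily, and the part of length was not tested.

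At overlapping peaks the pileup, when scaled to library size, was the higher in LNCaP at most pairs, and on the p arm by a wider margin. On the p arm the median over 96 pairs was 6.26 scaled tags in LNCaP and 1.496 in VCaP, and on the q arm, over 341 pairs, it was 5.72 and 1.73. The median log2 ratio of LNCaP over VCaP was 2.02 on the p arm (interval of the median 1.87 to 2.19) and 1.59 on the q arm (1.51 to 1.73), a difference of 0.43. Over the 6249 pairs of the other chromosomes it was 1.75, between these values. The size of these ratios depends on the scaling: with undivided pileup the medians were 0.78 on the p arm and 0.35 on the q arm, where the lower quartile was 0. Divided by the median of the other chromosomes they were 0.27 and -0.15, so that the direction on the q arm turned. Both changes shift every log2 ratio by the same amount, so that the difference of 0.43 between the arms could not change. With fold enrichment it was 0.10. Without the pairs from 25 to 35 Mb, left out after seeing the data, it was 0.29. In scaled tags, LNCaP had at least 4 times the VCaP value at 49 of 96 pairs on the p arm, or 51.0% (40.6 to 61.4), and at 96 of 341 on the q arm, or 28.2% (23.4 to 33.2), against 33.0% of all pairs in the genome. VCaP had the higher value at 3 of 439 pairs, or 0.683%, against 1.26% of all pairs, and 2 of these 3 lay between the arms. The smallest listed values on the chromosome were 1.36 scaled tags in LNCaP and 0.805 in VCaP. A pair has to reach both. VCaP peaks with a partner had a median of 1.73 scaled tags, with quartiles of 1.38 and 2.30, above the smallest LNCaP value. The part of these limits in the shares was not tested.

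Fold enrichment at the same pairs differed little between the arms. Its median log2 ratio of LNCaP over VCaP was 0.36 on the p arm (0.21 to 0.49) and 0.26 on the q arm (0.22 to 0.34), and the intervals overlap. Fold enrichment was higher in LNCaP at 70 of 96 pairs on the p arm and 250 of 341 on the q arm, or 72.9% and 73.3%. For the chromosome this made 320 of 439 pairs, 72.9% (68.5 to 77.0), below the 80.8% of all pairs. Tags in the 10 kb windows differed between the arms as the pileup did, with a median log2 ratio of 1.79 on the p arm (1.63 to 1.91) and 1.30 on the q arm (1.23 to 1.41). With the tags over the summit taken off, these ratios were 1.68 and 1.19. In LNCaP the windows of the pairs held a median of 25.2 scaled tags on the p arm and 23.4 on the q arm, and in VCaP 6.96 and 9.32.

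**Figure D4:**
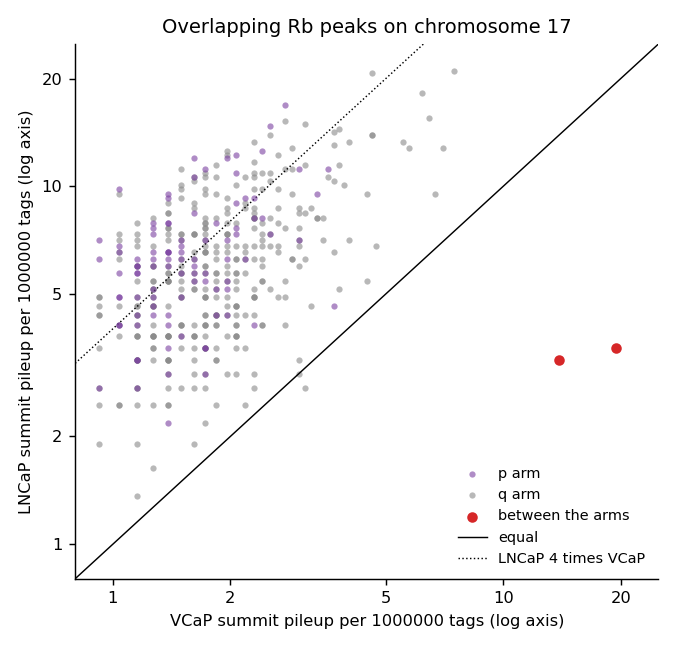
Summit pileup in scaled tags in LNCaP (vertical) and VCaP (horizontal) at the 439 overlapping pairs of chromosome 17, on log axes. Each point is a pair, coloured by arm, with lines for equal values and for 4 times the VCaP value. Pairs of the p arm lie on or above the 4-fold line in 51.0% of cases and those of the q arm in 28.2%, and the 2 pairs between the arms lie below the line of equal values.

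The q arm was not uniform. In the bins from 25 to 30 and 30 to 35 Mb the median log2 ratio of scaled pileup at pairs was 1.21 (1.00 to 1.44) and 1.24 (0.87 to 1.29), the lowest of the 12 bins with at least 10 pairs. It was 1.47 from 35 to 40 Mb, 1.66 from 40 to 45 Mb and 1.58 from 45 to 50 Mb. From 55 Mb to the end of the chromosome the bins with at least 10 pairs had between 1.77 and 2.03. The highest of the 12 was the bin from 5 to 10 Mb, with 2.24 (1.92 to 2.66), followed by the bin from 15 to 20 Mb with 2.15. In the 227 bins of other chromosomes with at least 10 pairs the median was 1.76, and the 10th and 90th percentiles were 1.37 and 2.14.

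The stretch from 25 to 35 Mb, singled out after its values were seen, differed from the rest of the q arm mainly in VCaP. Its 71 pairs had a median pileup of 5.45 scaled tags in LNCaP and 2.19 in VCaP, and the 270 pairs from 35 Mb on had 5.99 and 1.73. Windows held a median of 20.2 scaled tags in LNCaP and 13.5 in VCaP in that stretch, and 24.6 and 8.51 beyond it. LNCaP reached 4 times the VCaP pileup at 4 of these 71 pairs, 5.63% (1.56 to 13.8), and at 92 of the 270, 34.1% (28.4 to 40.1). Of all pairs in the genome 33.0% did so. The median log2 ratio of fold enrichment was 0.33 in the stretch and 0.26 beyond it. The stretch had 141 LNCaP and 106 VCaP peaks, 1.33 times as many in LNCaP (1.03 to 1.73), and beyond it there were 735 and 364, or 2.02 times as many (1.78 to 2.30). Because the stretch was chosen with such values known, these intervals do not measure how far it stands apart.

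**Figure D5:**
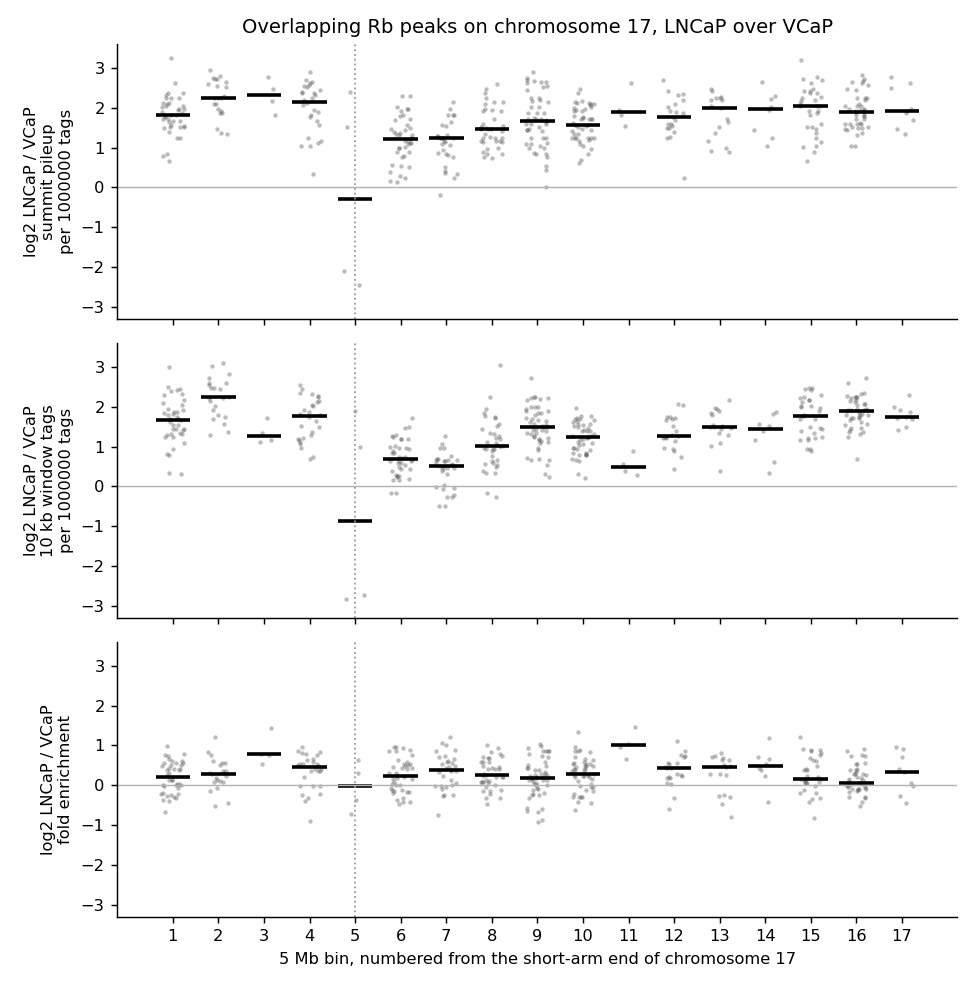
Log2 ratio of LNCaP over VCaP at overlapping pairs in each 5 Mb bin of chromosome 17, for summit pileup in scaled tags (top), scaled tags in the 10 kb window (middle) and fold enrichment (bottom). Points are pairs, black bars medians, and the dotted line marks the bin with the limit between the arms. The pileup medians are 2.24 in bin 2 and 1.21 in bin 6, while those of fold enrichment are 0.29 and 0.24.

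Bins with a larger excess of LNCaP peaks tended to have the larger pileup ratio at pairs. Across the 17 bins Spearman's rho between the ratio of peak numbers and the median log2 pileup ratio was 0.64, and 0.89 over 16 bins without the one from 20 to 25 Mb, whose 4 pairs include those between the arms. With the median log2 ratio of fold enrichment rho was 0.37 and 0.56, and with that of window tags 0.23 and 0.43. These values describe bins that share the same 2 libraries and whose pairs are part of the peaks counted, and bins are not replicates. The numbers of LNCaP and VCaP peaks themselves went together across the 17 bins with a rho of 0.84.

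The site of highest fold enrichment on chromosome 17 was the same in both lists. At 57642590–57643074 LNCaP had 67 tags over the summit, or 18.2 scaled tags, with a fold enrichment of 19.001, and VCaP had 54 tags, or 6.21 scaled tags, with 16.4 at 57642614–57643054. The summits were 8 bp apart, and the site ranked 26 of all LNCaP and 28 of all VCaP peaks by fold enrichment. The site at 56084461–56085260 (LNCaP interval) ranked 3 on the chromosome in both lists, with 21.0 scaled tags in LNCaP and 7.48 in VCaP, and folds of 16.8 in LNCaP and 14.7 in VCaP. Next by the worse of both ranks came 79196613–79197343, with 13.9 scaled tags in LNCaP and 4.60 in VCaP, and folds of 13.4 in LNCaP and 11.6 in VCaP. At these 3 sites the ratio of scaled pileup was 2.94, 2.80 and 3.02, below the median of 3.31 for the pairs of the chromosome.

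Another 7 sites completed the 10 that ranked best in both lists. At 35305763–35306607 the pileup was 13.3 scaled tags in LNCaP and 5.52 in VCaP, and at 40896907–40897390 it was 13.9 and 4.60. At 60500943–60501576 it was 14.98 in LNCaP and 3.11 in VCaP, and at 40729496–40729987 it was 13.3 and 2.30. The site at 33446616–33447087 had 9.53 scaled tags in LNCaP and 6.67 in VCaP (ratio 1.43) and was the only one of the 10 with the higher fold in VCaP, 12.8 in LNCaP and 15.1 in VCaP. The sites at 72869043–72869789 and 7818878–7819585 had 14.4 and 14.7 scaled tags in LNCaP and 3.80 and 2.53 in VCaP. Of the 10 sites 9 lay on the q arm and only 7818878–7819585 on the p arm.

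On the p arm, the named sites had higher scaled pileups in LNCaP than in VCaP. The highest shared site of the arm by LNCaP pileup, 17183886–17184729, had 16.9 scaled tags in LNCaP and 2.76 in VCaP, with folds of 15.1 in LNCaP and 8.72 in VCaP. Nearby, 17380026–17380692 had 12.3 scaled tags in LNCaP and 2.07 in VCaP, and folds of 15.1 and 7.72. The best pairs of the bins from 0 to 5 and 10 to 15 Mb, 4736305–4736774 and 12692762–12693441, had 11.98 and 5.72 scaled tags in LNCaP and 1.96 and 1.61 in VCaP. The order of the folds was the opposite at 17875437–17876055, where LNCaP had a fold of 6.41 at 4.63 scaled tags and VCaP its only p arm fold of at least 10, with 11.9 at 3.68 scaled tags.

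The 5 pairs with the largest LNCaP excess had 7.44 to 9.47 times the VCaP scaled pileup, and 3 of them lay on the p arm. The largest was at 4693141–4693814, with 36 tags in LNCaP and 9 in VCaP, or 9.81 and 1.04 scaled tags. On the q arm, 72772408–72772781 had 35 and 9 tags, or 9.53 and 1.04 scaled tags, a ratio of 9.21. With 8 to 14 VCaP tags at each of these 5 summits, the counting error of the single ratios is large.

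At the other end, 3 pairs had the higher scaled pileup in VCaP. At 22252999–22253405 LNCaP had 13 tags over the summit and VCaP 169, which is 3.54 scaled tags in LNCaP and 19.4 in VCaP. At 22261074–22261635 the counts were 12 in LNCaP and 121 in VCaP, or 3.27 and 13.9 scaled tags. The windows there held 31 and 36 tags in LNCaP and 523 and 560 in VCaP, and folds of 8.01 and 6.96 in LNCaP stood against 13.3 and 8.97 in VCaP. At 30638348–30638638 on the q arm the values were nearly equal, with 2.72 in LNCaP and 3.11 in VCaP.

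The 2 pairs between the arms belong to a group of 6 VCaP peaks from 22247053 to 22261684, just outside the limit of the p arm and at the edge of the unsequenced centromere gap. The other 4 VCaP peaks of the group had 41 to 83 tags over the summit and no LNCaP partner. Their folds were between 3.95 and 8.10, and their windows held 186 to 675 tags. On the far side of the gap, VCaP had a peak of 18 tags at 25264926–25265521 and LNCaP one of 16 tags at 25289419–25289984. Just inside the limits, the last p arm peak was at 22193905–22194313 in LNCaP, with 10 tags, and at 21454453–21454733 in VCaP, with 10 tags. The first q arm peaks were at 25318897–25319137 in LNCaP, with 7 tags, and at 25563797–25564021 in VCaP, with 8 tags. Both lists were called without a control library, and the part of background signal in these pileups was not tested.

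The highest pileup of any LNCaP peak on the chromosome had no partner in VCaP. It lay on the p arm at 21906085–21906827, with 101 tags or 27.5 scaled tags, a fold enrichment of 11.4 and 330 tags in its window, and the nearest VCaP summit was 341 kb away. LNCaP peaks at 21903106–21903391 and 21904580–21904960 lay beside it, with 42 and 35 tags, folds of 5.05 and 4.11 and no partner. The windows of these 3 peaks held 84.98 to 89.9 scaled tags, against the median of 19.9 for LNCaP peaks of the p arm, and the part of background signal there was not tested. The other 4 of the 5 highest LNCaP folds without a partner were all on the q arm, at 72667324–72667769, 38375355–38375745, 57696646–57697309 and 54857499–54857946. They had folds of 13.7, 11.3, 11.0 and 10.9 and a pileup of 5.99 to 7.35 scaled tags. In VCaP the 5 highest folds without a partner were lower, between 7.95 and 8.95, and 4 of the 5 had a pileup between 1.73 and 3.22 scaled tags. These 4 lay at 37824587–37824937, 27038120–27038605, 80732805–80733152 and 698073–698396, and the remaining one, at 22247053–22247302, belonged to the group between the arms.

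The 3 longest peaks of each list were not among its 10 of highest fold enrichment. In LNCaP they measured 1450 bp at 78120266–78121715, 1371 bp at 41399764–41401134 and 1239 bp at 21116869–21118107, with folds of 6.53, 7.19 and 4.94. In VCaP the longest, of 1013 bp, was the peak at 22260672–22261684 between the arms, with a fold of 8.97 that ranked 37 on the chromosome. The peaks at 43393979–43394937 and 27229388–27230317 followed with 959 and 930 bp and folds of 5.44 and 6.37. Of these 6 peaks, 5 had a partner in the other list, and the LNCaP peak at 21116869–21118107 did not.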

How the data were processed

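Rb ChIP-seq peaks of LNCaP and VCaP, with 1 library per line, were grouped by the line their labels name. The authors ran MACS 2.1.0.20140616 on each library without a control, per the file headers, at a q-value limit of 0.05, with 75 bp tags and 1 tag per position. The modelled fragment length was 241 bp in LNCaP and 225 bp in VCaP. The build hg19 and HOMER are named in the submitters' processing notes, while the aligner is not given in the sources used here. The deposited pileup is a coverage signal, not scaled to depth, the deposited fold enrichment is a ratio to the local background, significance was deposited as −log10 q and −log10 p, and the deposited length is in bp. The summit files repeated the summits and −log10 q of all listed peaks.

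Pileup was divided by the tags after filtering and multiplied by 1000000, so that 1 tag is 0.272 scaled tags in LNCaP and 0.115 in VCaP. The smallest listed pileup on chromosome 17 was 5 tags in LNCaP and 7 in VCaP, so that weaker sites are not seen. Pileup extends each tag to the modelled fragment length, which was 1.07 times as long in LNCaP. The 10 kb window tags are the background, pileup plus 1 over fold enrichment minus 1, rescaled by fragment length; windows below the genome mean take that mean. Partners overlap by at least 1 bp, and the one of highest fold enrichment was taken for each VCaP peak. Shares have exact 95% binomial (Clopper-Pearson) intervals, ratios of counts the intervals that follow from them, and medians over pairs binomial order-statistic intervals. Pairing was tested on simulated lists. Python 3.11.15, NumPy 2.4.6, pandas 2.3.3 and SciPy 1.17.1 were used.

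Named were the 10 peaks highest by pileup and by fold in each list, the 10 pairs with the best worse rank by fold, the 5 highest peaks without a partner, the 5 highest and 5 lowest pair ratios, the 3 longest peaks of each list and the best pair of each bin, of which those the results turn on are printed. Members, lists and rules were chosen with earlier results of these data known. Planned gene promoter counts and motif searches were not run, because no annotation or sequence of build hg19 was used here. Alternatives covered overlap, thresholds, list length, bins and scale.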

Additional observations from a re-analysis of the deposited data

How the results depend on the processing

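Of 97 alternatives over 26 results, 49 stayed within the limit used, 46 moved further and 2 changed direction. For most results the limit was the interval of counting error. For counts and for the quotient of the arm ratios it was 1.5 times, and comparisons of the arm medians had margins of their own. Where no number below shows it, the cause was not tested. The share of peaks with a partner was 23.9% in LNCaP and 49.2% in VCaP with reciprocal overlap of at least 50%, 30.3% and 62.1% with summits within 200 bp, 41.5% and 78.1% with gaps of up to 1000 bp, and 53.7% and 54.9% with equal numbers of peaks from each list. With −log10 q of at least 5 in both lists the VCaP share was 78.2%. With that limit in 1 list only, an alternative chosen after seeing the data, LNCaP had 40.0% on the p arm and 51.5% on the q arm, and VCaP 90.5% and 83.5%.

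With −log10 q of at least 5 there were 810 LNCaP and 348 VCaP peaks, the p arm ratio was 3.65, median pileups were 4.90 scaled tags on both arms in LNCaP and 1.73 (p) and 2.07 (q) in VCaP, and the p arm median log2 pileup ratio was 1.86. With at least 20 tags there were 358 LNCaP peaks (6.72% of the list) and 126 VCaP peaks (7.91%). The arm ratios were then 7.85 (p), with few VCaP peaks, and 2.39 (q), and their quotient was 3.28 against 1.57. With as many LNCaP as VCaP peaks over the genome, cut by fold enrichment, LNCaP kept 429 peaks (4.57%). This made the arm ratios 1.01 (p) and 0.655 (q), and the bins ran from 0.435 to 1.60. With a fold enrichment of at least 5 the LNCaP share of the list was 5.04%.

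The median log2 ratio at pairs was 0.36 (p) and 0.26 (q) with fold enrichment, 0.78 and 0.35 with undivided pileup, and 0.27 and -0.15 when divided by the median of the other chromosomes, which by construction sets that median to 0. Chosen after seeing the data, window tags gave 1.79 and 1.30, window tags less those over the summit 1.68 and 1.19, and leaving out 25 to 35 Mb gave 1.73 on the q arm. Leaving out that stretch could not change the p arm median, although it counts as within the interval. The difference between the arms, 0.43, was 0.10 with fold enrichment and 0.29 without 25 to 35 Mb. Undivided pileup and division by the median of the other chromosomes could not change it, although both count as within the interval. The VCaP log2 ratio of the p over the q arm median was 0.083 with fold enrichment, against -0.22 with pileup.

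No paired analysis was possible because each line has 1 library. Promoter and motif counts were not run. Low pileups, down to 5 tags in LNCaP and 7 in VCaP, limit the precision of single sites.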
